A study of Mus musculus with 9 samples.

Results

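Oxidative phosphorylation was followed through the 83 genes whose platform symbol began with *Nduf*, *Uqcr* or *Atp5*, or with *Cox* and a digit of 4, 5, 6, 7 or 8, out of 17097 genes that had a probe set of their own. Each gene was read through 1 probe set annotated to it alone, chosen where several existed by the highest average of the 9 arrays. The arrays measured brain tissue taken around the injection site of C57Bl/6J mice, a common inbred line. The mice were males of 10 to 12 weeks injected into the striatum, a deep forebrain region. Group LPS 4 d received LPS, a component of bacterial cell walls sensed by the receptor TLR4, and was collected 4 d later. Group LPS 1 d received LPS and was collected 1 d later. Group PBS 4 d received PBS, the vehicle, and was collected 4 d later. All mice were perfused with saline, each group had 3 arrays, and each array carried a pool of RNA from 3 mice, which means that the error given here is that between pools. No PBS array of 1 d was analysed here, so at 1 d the effect of LPS and that of recent surgery cannot be told apart.

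In the inner mitochondrial membrane, complexes I, III and IV pass electrons taken from NADH on to oxygen and pump protons outwards, and complex V, the ATP synthase, lets the protons return and makes ATP. Complex II feeds electrons into the chain without pumping. Neurons rely heavily on this pathway for ATP, whereas macrophages and microglia activated through TLR4 in culture are known to shift their metabolism towards glycolysis. A few nuclear subunits exist as a common isoform and as an isoform known from muscle, testis or low oxygen, and complex IV holds most of these.

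The members comprised 32 subunits of complex I, 7 of complex III, 17 of complex IV and 17 of complex V, together with 10 assembly and other proteins that the same symbols take in. Of these 10, 7 were complex I assembly factors (the *Ndufaf* genes), and the others were *Cox7a2l*, *Ndufa4l2* and the annotated pseudogene *Ndufs5-ps*. Subunits encoded by mitochondrial DNA and some nuclear ones were not analysed here. In 81 members the mean was above background, a log2 value of 3.49 set by the highest of 23 nonspecific control probe sets, and *Cox4i2* and *Cox7b2* lay at or below it. The members were measured tightly, with a median SD between arrays of a group of 0.05 on the log2 scale, compared to 0.126 over all genes and 0.055 over the 1367 genes with a mean of 9 or more, a range that held 67 of the 83 members.

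The transcripts of oxidative phosphorylation stayed close to their PBS level at both times after LPS. At 4 d after LPS, 0 of 83 members passed the limma test lower and 0 passed higher compared to PBS, where passing means a difference of 1.5-fold or more with p under 0.05 after adjustment across every probe set. Over all genes, 0.205% passed lower and 4.21% passed higher in this comparison. At 1 d after LPS, 0 members passed lower and 0 passed higher compared to PBS, against 0.532% of all genes lower and 3.86% higher. Between 4 d and 1 d after LPS, 0 members passed lower and 1 passed higher, *Cox6b2*, against 1.37% of all genes lower and 1.84% higher. The moderated F-test over the 3 groups gave the same 1 member, with an adjusted p of 0.0286 for *Cox6b2*, against 7.67% of all genes. Both comparisons with PBS used the same 3 PBS arrays.

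**Figure D1:**
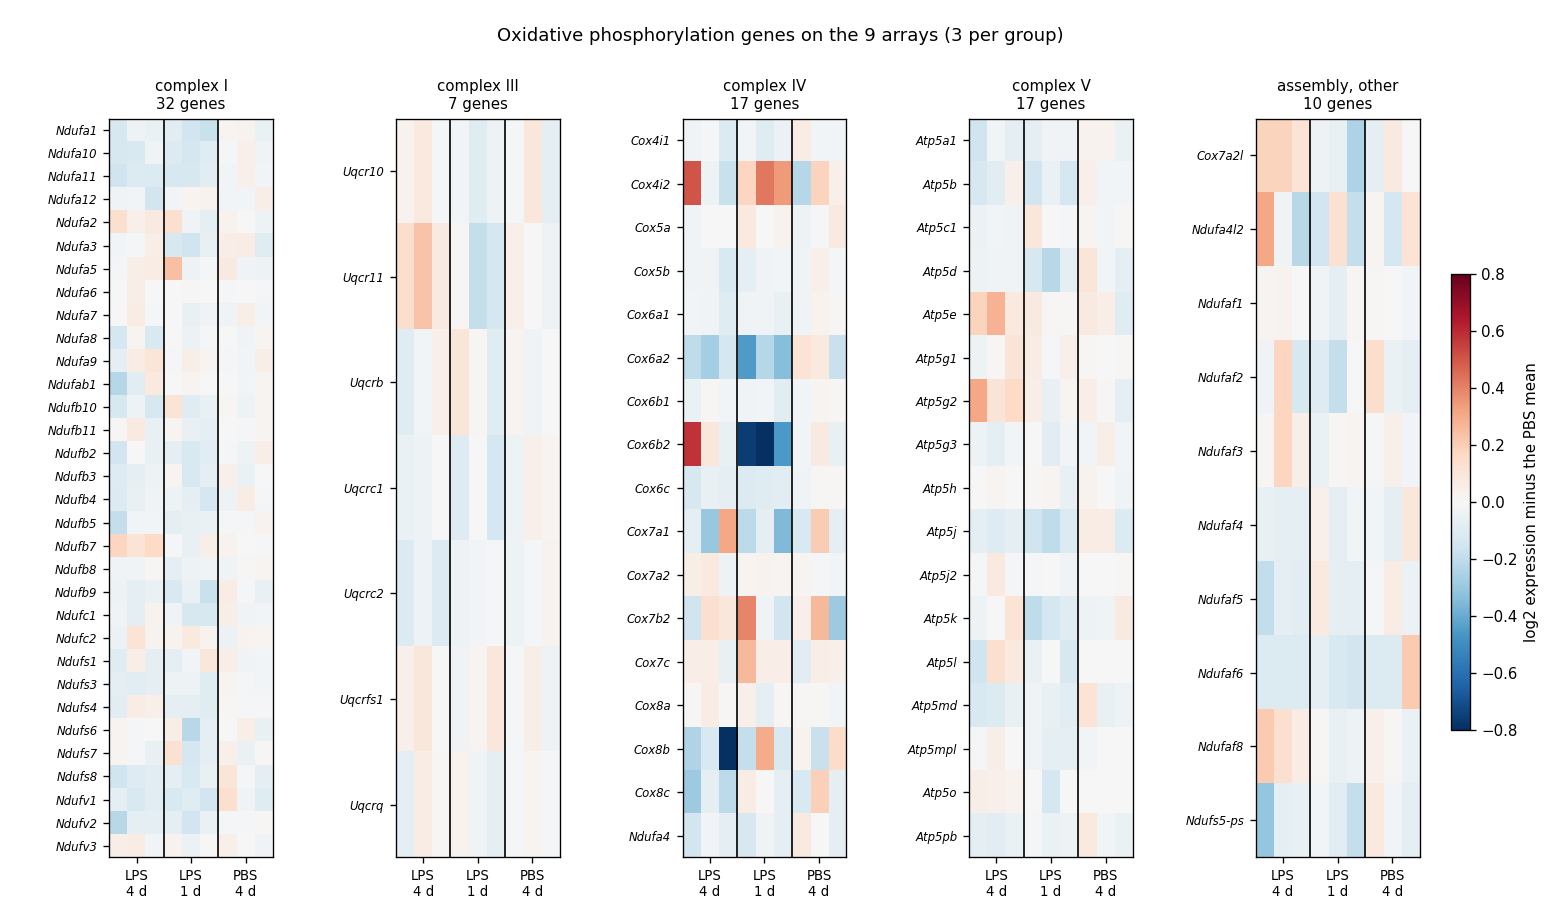
Log2 expression of each of the 83 members (rows, by complex) on each of the 9 arrays (columns, 3 per group), as the difference from the gene's mean over the 3 PBS arrays; red is higher and blue lower, and the scale ends at 0.8 in each direction. Most rows are pale, and the strongest colours are in the rows of tissue isoforms of complex IV, such as *Cox6b2* at 1 d after LPS.

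Beside these counts of 0, the numbers at an unadjusted p under 0.05 were small as well. At 4 d compared to PBS, limma gave 0 members lower, against 7.07% of all genes, and 1 higher (*Atp5g2*), against 10.6%. At 1 d compared to PBS it gave 2 members lower (*Cox6b2* and *Cox6a2*), against 8.43% of all genes, and 0 higher, against 9.40%. At 4 d compared to 1 d it gave 0 members lower, against 7.12% of all genes, and 4 higher (*Cox6b2*, *Cox7a2l*, *Uqcr11* and *Ndufaf8*), against 9.18%. The count depends on how the spread is estimated, since the plain moderation pulls the small spread of these genes towards that of all probe sets. With a spread fitted along the intensity scale, at 1 d compared to PBS 14 members were lower and 0 higher at an unadjusted p under 0.05, against 11.1% and 10.2% of all genes, and 1 (*Cox6b2*) passed the full test. An ordinary test without moderation gave 12 lower and 0 higher, against 9.87% and 9.39% of all genes, and 0 passed. At 4 d compared to PBS the fit along intensity gave 6 lower and 6 higher, against 10.2% and 11.6% of all genes, and the ordinary test 7 lower and 4 higher, against 8.90% and 10.5%, with 0 passing in either direction. Between 4 d and 1 d the fit along intensity gave 0 lower and 10 higher, against 8.80% and 10.6% of all genes, with 1 passing (*Cox6b2*). The ordinary test gave 0 lower and 8 higher, against 7.59% and 9.18%, with 0 passing.

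The differences were small as well as uncalled. The median log2 difference of the 83 members was -0.022 at 4 d compared to PBS, -0.044 at 1 d compared to PBS and 0.017 between 4 d and 1 d, beside -0.024, -0.027 and 0.002 over all genes. Over the 1367 genes with a mean of 9 or more the medians were -0.052, -0.035 and -0.013. The 95% interval of the difference lay within 1.5-fold in both directions for 82, 80 and 80 of the 83 members in these comparisons. It lay within 1.2-fold for 58, 57 and 59 of them. The interval reached past 1.5-fold at 4 d compared to PBS in *Cox8b*, and at 1 d compared to PBS and between the times in *Cox4i2*, *Cox6b2* and *Cox8b*. In such bulk tissue, fewer cells of a type and less RNA per cell cannot be told apart.

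At 1 d after LPS, 65 of 83 members (78.3%) had a mean below that of PBS, beside 56.6% of all genes and 62.3% of genes with a mean of 9 or more. At 4 d after LPS this held for 47 members (56.6%), beside 55.6% and 67.6%. The array medians of the 83 members, taken as differences from the PBS mean, were -0.046, -0.014 and -0.025 on the LPS 4 d arrays, -0.026, -0.059 and -0.063 on the LPS 1 d arrays and 0.003, -0.001 and -0.018 on the PBS arrays. The 3 arrays of 1 d after LPS lay below all 3 PBS arrays, whereas the LPS 4 d arrays overlapped with the PBS arrays. The LPS 1 d arrays were also apart from PBS in the median of all genes (-0.018, -0.032 and -0.022 at 1 d, against -0.003, 0.000 and 0.000 with PBS) and of genes with a mean of 9 or more (-0.029, -0.042 and -0.024 at 1 d, against -0.007, -0.003 and 0.009 with PBS). In both of these sets the LPS 4 d arrays lay below all PBS arrays as well. Their medians were -0.028, -0.014 and -0.021 over all genes, and -0.066, -0.03 and -0.042 over genes with a mean of 9 or more.

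The arrays of both groups were fully apart in 7 members that were lower and 8 that were higher at 4 d compared to PBS, against 11.8% and 12.0% of all genes, which for 83 members is a share of 8.43% and 9.64%. At 1 d compared to PBS they were apart in 17 members that were lower (20.5% of the members, against 14.0% of all genes) and in 0 that were higher (against 11.5%). Between 4 d and 1 d they were apart in 1 member that was lower and 14 that were higher, which is 1.2% and 16.9% of the members, against 9.76% and 11.4% of all genes. Among genes with a mean of 9 or more, 360 of 1367 were apart and lower at 1 d compared to PBS, beside 14 of the 67 members in that range, and 219 and 0 were apart and higher. No test was made of these shares.

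**Figure D2:**
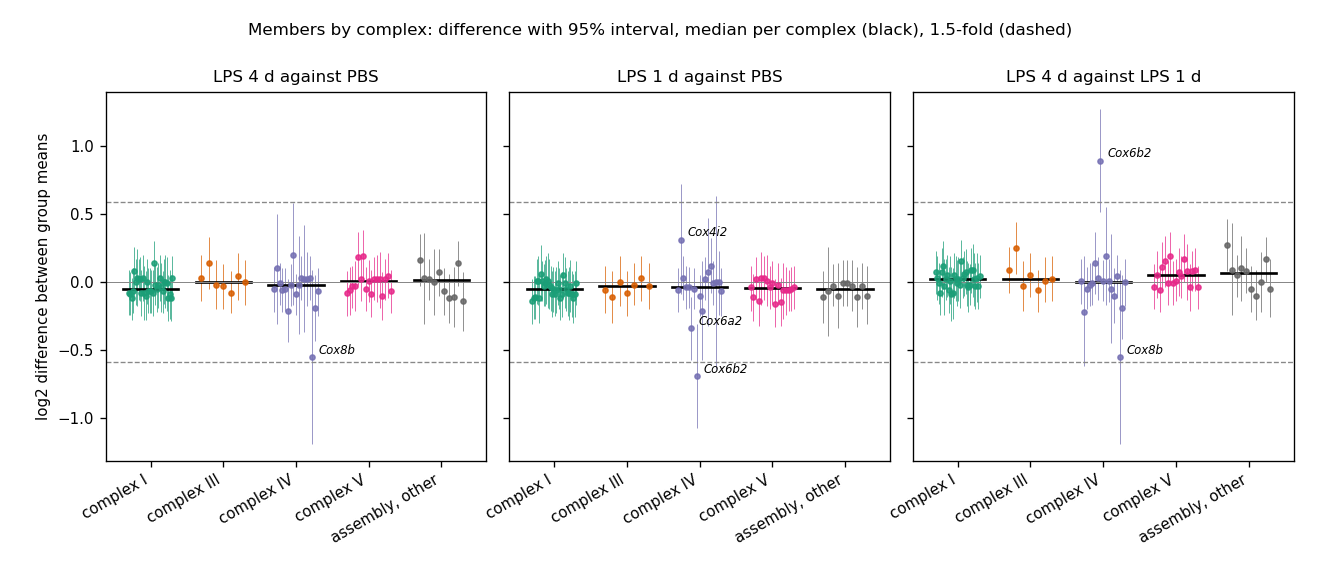
Log2 difference between group means of each member (points, with 95% intervals from limma) in 3 comparisons, by complex, with the complex median in black and 1.5-fold as dashed lines. The complex medians lie between -0.053 and 0.065, and *Cox6b2* is the 1 member beyond 1.5-fold that passed the test, between 4 d and 1 d.

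Where a gene is said to be at a value at 4 d or 1 d, the value is its log2 difference from PBS at that time. Complex I takes electrons from NADH. Its 32 subunits had a median log2 difference from PBS of -0.049 at 4 d and of -0.053 at 1 d, and one of 0.018 between the times, and 0 of them passed the test in any of these comparisons. The extremes were -0.12 and 0.14 at 4 d and -0.14 and 0.06 at 1 d, and the 95% interval lay within 1.5-fold in all 32 in each comparison. The 6 core subunits measured, which bind NADH and carry the iron-sulfur clusters or line the quinone site, all had means below PBS at both times, with medians of -0.083 at 4 d and -0.070 at 1 d. Genes with a mean of 9 or more were also shifted, with medians of -0.052 and -0.035 and 67.6% and 62.3% of them below PBS. *Ndufv1*, which binds NADH, had log2 values of 9.67, 9.62 and 9.65 at 4 d and 9.62, 9.64 and 9.59 at 1 d after LPS, compared to 9.87, 9.71 and 9.64 with PBS. PBS replicate 1 was the high array here, and the LPS 1 d arrays, unlike those of 4 d, lay below all PBS arrays, by less than the rounding for replicate 2 (log2 difference -0.12, 95% interval -0.30 to 0.06, adjusted p = 0.517 by limma).

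*Ndufv2*, an iron-sulfur subunit next to *Ndufv1*, had 10.43, 10.58 and 10.58 at 4 d and 10.58, 10.50 and 10.60 at 1 d after LPS, compared to 10.64, 10.64 and 10.66 with PBS. Both LPS groups lay below all PBS arrays, with log2 differences of -0.12 (adjusted p = 0.486) at 4 d and -0.09 (adjusted p = 0.647) at 1 d. A second probe set of *Ndufv2* gave 0.06 and 0.05 with overlapping arrays, so the lower values rest on 1 of 2 probe sets. Both LPS groups were also below all PBS arrays in *Ndufs3*, a core subunit of the arm that leads to quinone, with -0.07 (adjusted p = 0.640) and -0.05 (adjusted p = 0.759). *Ndufs8*, an iron-sulfur subunit, was at -0.12 at 4 d (adjusted p = 0.484) with its arrays apart from PBS, and at -0.09 at 1 d (adjusted p = 0.645) with an overlap. *Ndufs7* was at -0.01 and -0.03 and *Ndufs1*, the largest iron-sulfur subunit, at -0.04 and -0.01 at 4 d and 1 d.

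Neuronal markers had medians below that of PBS, as did genes with a mean of 9 or more (-0.052 at 4 d and -0.035 at 1 d). The 10 markers (*Snap25*, *Syt1*, *Rbfox3* and others) had a median log2 difference from PBS of -0.11 at 4 d and of -0.05 at 1 d, 0 of them passed the test, and all 10 were above background. All 10 were below PBS at 4 d and 7 were at 1 d, where the highest was at 0.09. Their summed linear level was 15900 to 16800 at 4 d, 17500 to 17700 at 1 d and 17700 to 18200 with PBS. The part of cell composition in the values of complex I was not tested.

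Among the 26 accessory subunits of complex I the median difference from PBS was -0.021 at 4 d and -0.047 at 1 d. *Ndufa1*, a membrane arm subunit needed for assembly, had 10.69, 10.78 and 10.77 at 4 d and 10.73, 10.67 and 10.64 at 1 d after LPS, compared to 10.84, 10.85 and 10.77 with PBS. Its arrays of 1 d lay below all PBS arrays (log2 difference -0.14, 95% interval -0.31 to 0.02, adjusted p = 0.382 by limma, and 0.0493 with the spread fitted along intensity, at less than 1.5-fold). *Ndufa11*, another membrane arm subunit, was apart from PBS at both times, at -0.12 (adjusted p = 0.413) at 4 d and -0.11 (adjusted p = 0.471) at 1 d. *Ndufb7*, an accessory subunit of the same arm, had 9.57, 9.51 and 9.56 at 4 d, 9.39, 9.34 and 9.45 at 1 d and 9.43, 9.40 and 9.39 with PBS. Its arrays of 4 d were the highest of all 9, yet the difference from PBS was 0.14 (95% interval -0.01 to 0.30, adjusted p = 0.352). *Ndufa10*, an accessory subunit of the membrane arm, was at -0.12 at 1 d compared to PBS with its arrays apart (adjusted p = 0.480), and *Ndufa3* at -0.12 with an overlap (adjusted p = 0.496).

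Complex III passes electrons from quinol to cytochrome c. Its 7 subunits had a median difference from PBS of -0.004 at 4 d and of -0.029 at 1 d, and one of 0.025 between the times, and 0 passed the test in any of the 3 comparisons. The Rieske iron-sulfur protein *Uqcrfs1* differed from PBS by 0.04 and 0.03 at 4 d and 1 d, and the core proteins *Uqcrc1* and *Uqcrc2* at -0.03 and -0.08, and at -0.08 and -0.02. The member with the widest movement was *Uqcr11*, the smallest accessory subunit of the complex. It had log2 values of 9.84, 9.93 and 9.77 at 4 d and 9.71, 9.51 and 9.56 at 1 d after LPS, compared to 9.74, 9.70 and 9.66 with PBS. Its 4 d arrays lay above all others. The difference between 4 d and 1 d was 0.25 (95% interval 0.06 to 0.44, adjusted p = 0.217 by limma, and 0.0208 with the spread fitted along intensity), and compared to PBS it was 0.14 at 4 d (adjusted p = 0.443) and -0.11 at 1 d (adjusted p = 0.588).

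Complex IV, cytochrome c oxidase, hands the electrons to oxygen, and here the common and the tissue isoforms differed in how they were measured. The 10 common subunits had a median difference from PBS of -0.037 at 4 d and of -0.041 at 1 d, and one of 0.002 between the times. Each of them lay within 0.12 of PBS in either comparison, and the 95% interval was within 1.2-fold for all 10 at 4 d and for 9 at 1 d. *Cox4i1*, the regulatory subunit facing the matrix, was at -0.05 and -0.06, *Cox6a1* at -0.05 and -0.04, *Cox6b1* at -0.02 and -0.05, *Cox7a2* at 0.03 and 0.02, and *Cox8a* at 0.03 and -0.01 at 4 d and 1 d. A second probe set gave -0.06 and -0.13 for *Cox7a2*, with its 1 d arrays below all PBS arrays, and -0.05 and -0.08 for *Cox8a*. Second probe sets of *Cox6a1* and *Cox6b1* kept the sign, at -0.01 and -0.05 and at -0.01 and -0.06. *Ndufa4*, long assigned to complex I and now counted with complex IV, was at -0.07 at both times (adjusted p = 0.683 and 0.718).

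The 7 tissue isoforms had mean log2 values between 2.22 and 6.47, so their values carried more spread. *Cox6b2*, the isoform of subunit VIb known from testis, showed the largest movement of all 83 members. It had log2 values of 5.17, 4.68 and 4.53 at 4 d and 3.83, 3.73 and 4.13 at 1 d after LPS, compared to 4.57, 4.66 and 4.53 with PBS. All 3 arrays of 1 d lay below all other arrays. They were above the background level of 3.49 but near it, with a mean of 3.9. The 4 d arrays overlapped with PBS, with replicate 1 as the high one. The level was 1.85-fold higher at 4 d than at 1 d (log2 difference 0.89, 95% interval 0.51 to 1.27, adjusted p = 0.0265 by limma).

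Compared to PBS, *Cox6b2* was at -0.69 at 1 d (95% interval -1.07 to -0.31, adjusted p = 0.0615) and at 0.20 at 4 d (95% interval -0.17 to 0.58, adjusted p = 0.596). The call between 4 d and 1 d was narrow. It was lost on leaving out LPS 1 d replicate 1 or 2, LPS 4 d replicate 2, or PBS replicate 1 or 3 (log2 difference 0.81 to 0.95, adjusted p between 0.0506 and 0.108), and in an ordinary test (adjusted p = 0.112). The difference from PBS at 1 d passed with the spread fitted along intensity (adjusted p = 0.0325), among probe sets above background (adjusted p = 0.0355), in a fit of the LPS 1 d and PBS arrays alone (adjusted p = 0.0300) and without LPS 4 d replicate 1 (adjusted p = 0.0160).

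The gene was read by 1 probe set, so no other probe set checks it. The 4 pericyte markers measured (*Pdgfrb*, *Rgs5*, *Kcnj8* and *Vtn*, all above background) also had their lowest sum at 1 d after LPS. Their summed linear level was 1070 to 1110 at 4 d, 585 to 624 at 1 d and 791 to 833 with PBS. Of the 4, 3 were below PBS at 1 d. Between the times, 2 passed higher at 4 d than at 1 d and 1 was lower at 4 d. Of 5 oligodendrocyte markers, 1 passed lower at 1 d compared to PBS and 1 passed higher at 4 d than at 1 d. Of these 5, only 3 were below PBS at 1 d, with extremes of -0.63 and 0.1. Between the times their median difference was 0.04, with 2 of them lower at 4 d and extremes of -0.14 and 0.78. Their sum was 4960 to 5600 at 4 d, 4920 to 5210 at 1 d and 5550 to 5700 with PBS. The part of either cell type in the values of *Cox6b2* was not tested. *Cox6b1*, the common isoform of the same subunit, had 11.08, 11.14 and 11.11 at 4 d and 11.10, 11.11 and 11.04 at 1 d after LPS, compared to 11.11, 11.15 and 11.14 with PBS. Its arrays of 1 d touched the PBS range within rounding but stayed below it, and its difference between 4 d and 1 d was 0.03 (95% interval -0.13 to 0.18, adjusted p = 0.917).

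**Figure D3:**
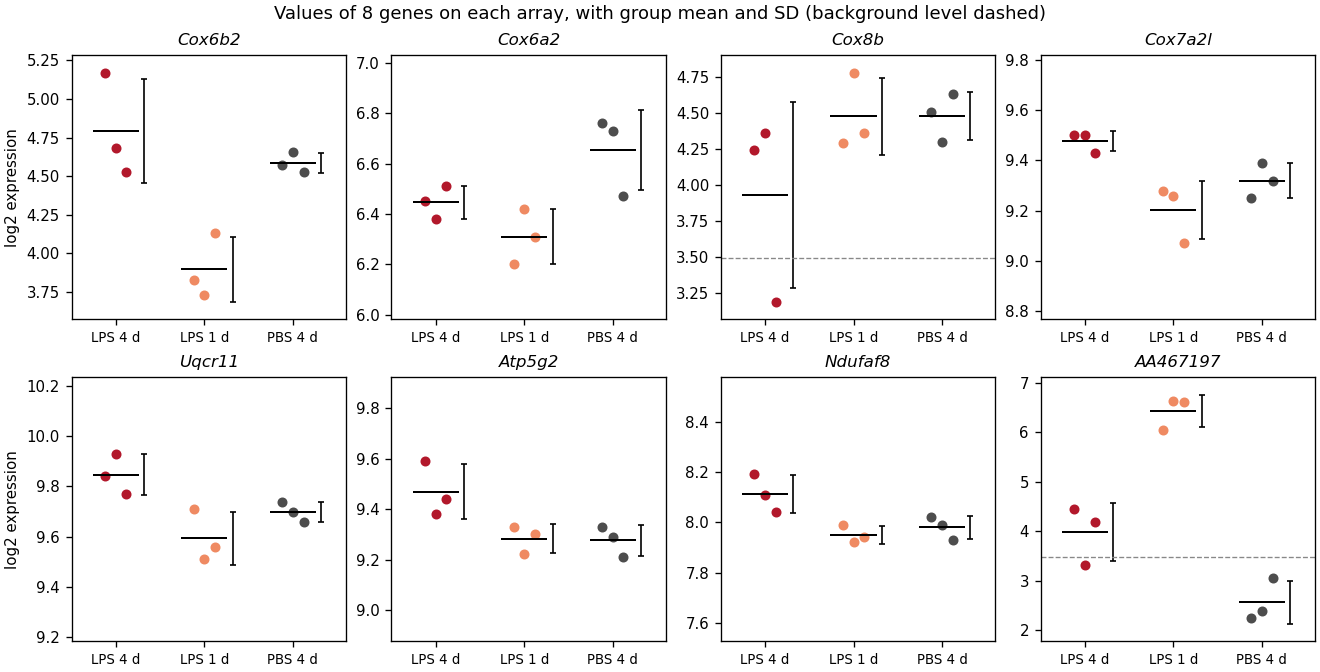
Log2 expression of 7 members and of *AA467197* on each array (points), with the mean of each group as a line and its SD (3 arrays) as a bar beside it; the dashed line is the background level of 3.49, drawn where it falls inside the axis. *Cox6b2* is lowest on the 3 arrays of 1 d after LPS, and *AA467197* is highest on them.

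*Cox6a2*, the muscle isoform of subunit VIa, had 6.45, 6.38 and 6.51 at 4 d and 6.20, 6.42 and 6.31 at 1 d after LPS, compared to 6.76, 6.73 and 6.47 with PBS. Its arrays of 1 d lay below all PBS arrays, with PBS replicate 3 close to them. The log2 difference from PBS was -0.34 at 1 d (95% interval -0.57 to -0.11, adjusted p = 0.127 by limma) and -0.21 at 4 d (95% interval -0.44 to 0.02, adjusted p = 0.364). *Cox8b*, the muscle isoform of subunit VIII in the mouse, had 4.24, 4.36 and 3.19 at 4 d and 4.29, 4.78 and 4.36 at 1 d after LPS, compared to 4.51, 4.3 and 4.63 with PBS. LPS 4 d replicate 3 alone lay below background, and the difference from PBS was -0.55 (95% interval -1.19 to 0.09, adjusted p = 0.380), or -0.18 without that array.

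The same array stood out in the choroid plexus markers, which are tissue of the nearby ventricle. The 5 measured (*Ttr*, *Kl*, *Folr1*, *Clic6* and *Otx2*, all above background) had array medians of -0.33, -0.45 and -1.41 at 4 d, -0.26, 0.29 and -0.07 at 1 d and 0.18, -0.37 and 0.18 with PBS, as log2 differences from the PBS mean. Their summed linear level was 1510 to 2990 at 4 d, 3520 to 4880 at 1 d and 3150 to 4350 with PBS, and *Otx2* alone passed the test at 4 d (-1.17, adjusted p = 0.0173). The part of choroid plexus in the values of *Cox8b* was not tested. The other tissue isoforms did not pass in any comparison. *Cox7a1*, from heart and muscle, was at -0.02 and -0.21, and *Cox8c*, from testis, at -0.19 and 0.00 at 4 d and 1 d, while *Cox4i2*, known from lung and low oxygen, and *Cox7b2* were at background in all groups.

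Complex V makes ATP with a rotor in the membrane and a catalytic F1 head. Its 17 subunits had a median difference from PBS of 0.005 at 4 d and of -0.044 at 1 d, and one of 0.053 between the times, and 0 passed the test in these comparisons. The catalytic subunits *Atp5a1* (alpha) and *Atp5b* (beta) were at -0.08 and -0.06 at 4 d and at -0.04 and -0.11 at 1 d, and the central shaft subunit *Atp5c1* at -0.03 and 0.02. *Atp5b* had 11.03, 11.07 and 11.20 at 4 d, 11.01, 11.11 and 11.02 at 1 d and 11.20, 11.14 and 11.14 with PBS. Its arrays of 1 d lay below all PBS arrays, with a 95% interval of -0.29 to 0.06 for the difference (adjusted p = 0.535). Between 4 d and 1 d the arrays were apart in 7 of the 17 subunits with 4 d higher, against 11.4% of all genes, and in 1, *Atp5c1*, with 4 d lower, against 9.76%. All 17 had a mean of 9 or more, and of the 1367 genes in that range 205 were apart and higher and 226 apart and lower. Of the 7, second probe sets of *Atp5d* (0.11) and *Atp5k* (0.17) were also apart, whereas that of *Atp5o* was at -0.12 with overlapping arrays.

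*Atp5g2*, which is 1 of 3 genes for the c subunit of the rotor ring and encodes the same mature protein as the others, had 9.59, 9.38 and 9.44 at 4 d and 9.33, 9.22 and 9.30 at 1 d after LPS, compared to 9.33, 9.29 and 9.21 with PBS. Its 4 d arrays were the highest of all 9 (log2 difference from PBS 0.19, 95% interval 0.00 to 0.38, adjusted p = 0.304). *Atp5g1* and *Atp5g3*, the other c subunit genes, showed no such separation of the arrays. *Atp5e*, the epsilon subunit of the shaft, had 9.85, 9.95 and 9.75 at 4 d, 9.74, 9.68 and 9.68 at 1 d and 9.74, 9.72 and 9.57 with PBS, and at 4 d it differed from PBS by 0.18 (95% interval -0.02 to 0.37, adjusted p = 0.350). *Atp5j*, coupling factor 6 of the peripheral stalk, was at -0.16 (adjusted p = 0.376) and *Atp5k*, a membrane subunit of the dimer interface, at -0.15 (adjusted p = 0.401) at 1 d compared to PBS, and at 4 d they were at -0.09 and 0.02.

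The assembly and other proteins had a median difference from PBS of 0.011 at 4 d and of -0.049 at 1 d, and one of 0.065 between the times, and all 10 had means below PBS at 1 d. *Cox7a2l*, known as a supercomplex factor, had 9.5, 9.5 and 9.43 at 4 d and 9.28, 9.26 and 9.07 at 1 d after LPS, compared to 9.25, 9.39 and 9.32 with PBS. What its product does in this mouse line was not tested. Its 4 d arrays were the highest of all 9. The difference between 4 d and 1 d was 0.27 (95% interval 0.08 to 0.46, adjusted p = 0.183 by limma, and 0.0171 with the spread fitted along intensity). The gene had 2 further probe sets, and these gave -0.01 and 0.10 for the same comparison, so the difference rests on 1 of 3 probe sets.

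*Ndufaf8*, an assembly factor that works with *Ndufaf5*, had 8.19, 8.11 and 8.04 at 4 d, 7.99, 7.92 and 7.94 at 1 d and 8.02, 7.99 and 7.93 with PBS. Its 4 d arrays lay above all others by a small margin, with a difference of 0.17 from 1 d (95% interval 0.00 to 0.33, adjusted p = 0.379), and its second probe set gave 0.08. Compared to PBS, the second probe set was below at both times, at -0.1 at 4 d with overlapping arrays and at -0.18 at 1 d with its arrays apart. The higher level at 4 d than with PBS thus rests on 1 of 2 probe sets. *Ndufaf6*, another assembly factor, was at -0.11 at both times compared to PBS, where PBS replicate 3 (6.26) stood above the other 8 arrays (5.90 to 5.98). *Ndufa4l2*, the paralogue of *Ndufa4* known from low oxygen, was at 0.03 and -0.07, and *Ndufs5-ps* at -0.14 and -0.10 at 4 d and 1 d. A pseudogene can share probes with its parent, so its signal cannot be assigned to it alone.

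Of the 83 members, 40 had several probe sets, up to 5 per gene. None of the 58 further probe sets passed in any of the 3 comparisons (0 passing), 50 of them were above background, and their unadjusted p under 0.05 counted 1 lower and 1 higher at 4 d, 5 lower and 0 higher at 1 d, and 1 lower and 5 higher between the times. Over all genes these shares were 7.07% and 10.6%, 8.43% and 9.40%, and 7.12% and 9.18%, so the counts lay near or below the background. Probe sets of opposite sign were found in 16 of the 40 genes at 4 d, in 11 of them at 1 d and in 14 for the difference between the times, so the counts of members below PBS depend on the probe set chosen. The median range between the probe sets of a gene was 0.06, 0.08 and 0.06 in these comparisons, and the widest range was 0.49 in *Uqcrq* at 4 d, 0.52 in *Cox5b* at 1 d and 0.52 in *Ndufab1* between the times, each with a probe set near or below background.

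**Figure D4:**
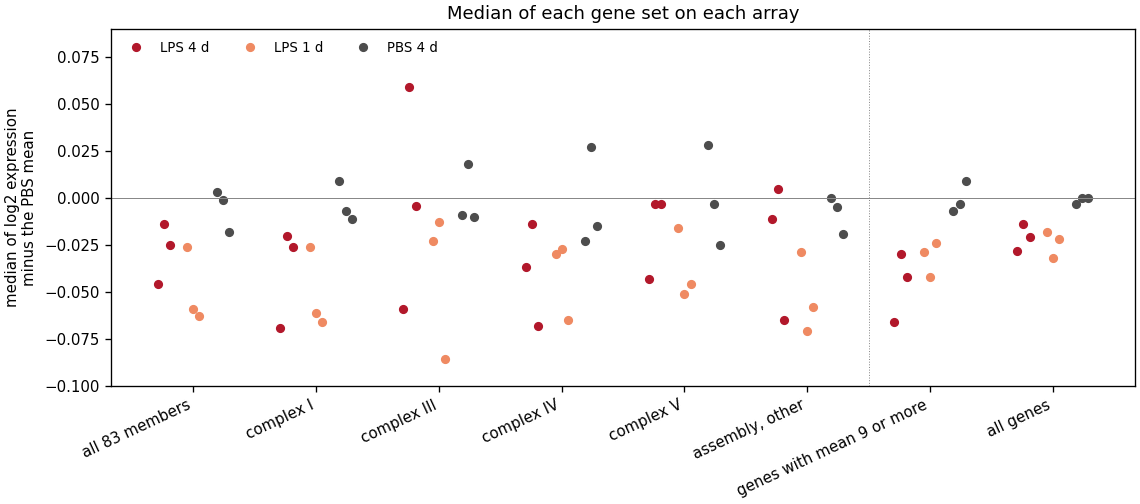
Median over the genes of a set of the log2 expression minus the gene's PBS mean, for each of the 9 arrays (points, 3 per group), for the members, each complex, genes with a mean of 9 or more, and all genes. For all 83 members the LPS 1 d arrays (-0.026 to -0.063) lie below the PBS arrays (-0.018 to 0.003).

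Promoters are shown for the 4 members that were higher at 4 d than at 1 d at an unadjusted p under 0.05, which are *Cox6b2*, *Cox7a2l*, *Uqcr11* and *Ndufaf8*, and for *Cox6b1* as the common partner of *Cox6b2*. The windows come from RefSeq (GRCm38.p6) and run from 250 bases before to 50 bases after the annotated start, 5′ to 3′ along the gene. Capitals mark a match on either strand to CGCATGCG, the core bound by NRF1, or to CCGGAAG, the ETS core bound by GABP, whose reverse complement is CTTCCGG. NRF1 and GABP are known activators of nuclear genes for the respiratory chain. *Cox6b2* (chr7:4753045-4753344, minus strand) and *Cox7a2l* (chr17:83514284-83514583, minus strand) hold neither motif in this window. *Cox6b1* (chr7:30626065-30626364, minus strand) and *Ndufaf8* (chr11:120098684-120098983, plus strand) hold 1 ETS core each, and *Uqcr11* (chr10:80406772-80407071, minus strand) holds 1 of each.
Cox6b2: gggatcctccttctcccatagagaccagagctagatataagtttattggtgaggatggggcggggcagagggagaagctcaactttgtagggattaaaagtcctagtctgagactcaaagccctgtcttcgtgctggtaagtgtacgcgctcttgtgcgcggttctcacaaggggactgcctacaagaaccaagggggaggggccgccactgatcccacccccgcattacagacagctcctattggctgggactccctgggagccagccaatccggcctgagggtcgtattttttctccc
Cox6b1: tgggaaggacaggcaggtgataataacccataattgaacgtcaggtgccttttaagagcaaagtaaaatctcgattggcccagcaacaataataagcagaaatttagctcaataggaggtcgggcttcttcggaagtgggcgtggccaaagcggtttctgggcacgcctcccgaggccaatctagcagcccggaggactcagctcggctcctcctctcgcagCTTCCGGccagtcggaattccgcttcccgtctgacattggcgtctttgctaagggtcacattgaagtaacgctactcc
Cox7a2l: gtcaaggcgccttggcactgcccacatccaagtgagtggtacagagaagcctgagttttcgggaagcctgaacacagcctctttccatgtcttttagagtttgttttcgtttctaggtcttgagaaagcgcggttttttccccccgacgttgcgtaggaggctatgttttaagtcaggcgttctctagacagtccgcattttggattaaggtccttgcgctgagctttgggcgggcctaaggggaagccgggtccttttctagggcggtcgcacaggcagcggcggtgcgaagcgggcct
Uqcr11: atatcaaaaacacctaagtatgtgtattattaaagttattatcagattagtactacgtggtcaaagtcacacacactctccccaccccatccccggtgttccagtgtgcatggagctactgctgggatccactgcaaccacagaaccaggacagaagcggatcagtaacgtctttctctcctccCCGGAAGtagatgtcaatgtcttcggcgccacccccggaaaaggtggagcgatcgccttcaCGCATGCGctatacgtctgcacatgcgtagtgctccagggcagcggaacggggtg
Ndufaf8: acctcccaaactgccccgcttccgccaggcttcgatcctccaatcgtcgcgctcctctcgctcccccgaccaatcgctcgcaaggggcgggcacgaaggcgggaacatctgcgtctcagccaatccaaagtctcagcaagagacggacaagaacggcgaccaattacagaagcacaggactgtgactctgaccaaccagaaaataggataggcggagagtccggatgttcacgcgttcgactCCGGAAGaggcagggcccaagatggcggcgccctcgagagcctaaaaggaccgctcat

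Of the 83 members, 67 had such a window, and 11 of these genes (16.4%) held the NRF1 core, against 2.07% of the 27025 genes in the table. The ETS core was in 15 (22.4%), against 9.93% of all genes, and either motif was in 21 (31.3%), against 11.6%. By complex, either motif was found in 5 of 29 genes of complex I, 2 of 4 of complex III, 3 of 12 of complex IV, 7 of 15 of complex V and 4 of 7 of the assembly and other proteins. These shares are a description of the letters in the windows. Of the regulators themselves, 12 of 13 listed genes were measured and 0 passed the test in any of the 3 comparisons. Of the 12, 7 were below PBS at 4 d, with extremes of -0.2 and 0.32, and 9 at 1 d, with extremes of -0.2 and 0.41. *Nrf1* was at 0.32 (adjusted p = 0.396) and *Gabpa* at 0.19 (adjusted p = 0.287) at 4 d compared to PBS.

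Other genes of the pathway gave the same picture of small differences. In complex II and its assembly factors, 8 of 8 were measured, with median differences from PBS of 0.02 at 4 d and of -0.04 at 1 d. Cytochrome c, cytochrome c1 and 5 further genes around the complexes (7 of 8 measured) had medians of -0.02 and -0.05. The 15 of 16 assembly factors of complexes I, III and V outside the symbol rule had -0.05 and -0.06, and the 18 of 23 assembly factors of complex IV had 0.00 and -0.03. The 14 of 16 genes of pyruvate dehydrogenase and the citric acid cycle had -0.04 and -0.03, the 12 regulators -0.02 and -0.03, and the 14 of 16 mitochondrial carriers, channels and import genes -0.02 and -0.01. Between 4 d and 1 d the medians of these lists lay between -0.05 and 0.05, and 0 genes of these lists passed the test in any of the 3 comparisons. *Atpaf1*, a chaperone of the F1 head, had 8.26, 8.39 and 8.34 at 4 d and 8.42, 8.59 and 8.45 at 1 d after LPS, compared to 8.65, 8.68 and 8.67 with PBS. Both LPS groups lay below all PBS arrays, and at 4 d the log2 difference of -0.34 (95% interval -0.52 to -0.16) had an adjusted p of 0.0468 but was under 1.5-fold.

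The exception was *AA467197*, also known as *Nmes1*, a paralogue of *Ndufa4* whose product is known, from human cells and mouse macrophages, to take the place of NDUFA4 in complex IV during inflammation. It had log2 values of 4.45, 3.33 and 4.19 at 4 d and 6.06, 6.64 and 6.61 at 1 d after LPS, compared to 2.25, 2.39 and 3.05 with PBS. All LPS arrays lay above all PBS arrays, the arrays of 1 d lay above those of 4 d, and all PBS arrays and LPS 4 d replicate 2 were at or below the background level. Set against that level, it was at least 7.71-fold higher at 1 d than with PBS. The mean at 4 d lay 1.41-fold above that level, which is no lower bound, since replicate 2 was itself below it. With PBS below background, no exact difference from PBS was measured. The limma test against PBS passed at 1 d (adjusted p = 0.000105) and, narrowly, at 4 d (adjusted p = 0.0385), where the call was lost in a fit of LPS 4 d and PBS alone (adjusted p = 0.0890), in the ordinary test (adjusted p = 0.138) and when replicate 1 or 3 of LPS 4 d, 2 or 3 of LPS 1 d, or 1 or 2 of PBS was left out (adjusted p between 0.0593 and 0.133). The log2 difference between 4 d and 1 d was -2.44 (adjusted p = 0.00372). *Ndufa4* itself had 10.88, 11.01 and 10.96 at 4 d and 10.9, 11 and 10.96 at 1 d after LPS, compared to 11.10, 11.03 and 10.95 with PBS, and its 95% interval at 1 d was -0.25 to 0.10.

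Marker genes of the cell types in the tissue were read on the same arrays. Of 8 microglia and macrophage markers, 8 passed higher than PBS at 4 d and 6 did so at 1 d, and their summed linear level was 3180 to 3890 at 4 d, 1500 to 1550 at 1 d and 675 to 695 with PBS. Of 9 neutrophil markers, 1 passed higher at 4 d and 4 at 1 d, 4 had a mean at or below background, and the sum was 285 to 482 at 4 d, 1550 to 4200 at 1 d and 92.7 to 178 with PBS. The median difference of the neutrophil markers from PBS was only 0.13 at 4 d and 0.19 at 1 d, with 4 and 3 of the 9 below PBS. Their extremes at 1 d were -0.19 and 5.87, so the sum does not stand for all 9. Both sums were higher after LPS like *AA467197*, and the neutrophil sum was, like it, highest at 1 d. The part of these cells in its values was not tested. Of 6 astrocyte markers 2 passed higher at each time, of 5 endothelial markers 2 at 4 d and 1 at 1 d, and of 5 oligodendrocyte markers 1 passed lower at 1 d. The 6 markers of striatal projection neurons had median differences from PBS of -0.16 at 4 d and of -0.21 at 1 d, and 0 passed.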

How the data were processed

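RNA of 9 pools was amplified, labelled and hybridised by the authors to Affymetrix HT mouse genome arrays. The deposited values are log2 expression per probe set, which the authors made by RMA in Affymetrix Expression Console, per the submitters' processing notes, with the software version not given in the sources used here. RMA corrects background and forces the arrays to 1 distribution, so a change of total RNA would not be seen. Array medians lay between 4.32 and 4.37, and no slide or scan batch is given. The table held 104 control entries, which were set aside, and 45037 other probe sets, of which 28898 carried 1 symbol in the platform annotation, 551 several and 15588 none. The last 2 kinds were not named. All 83 member symbols were the same in RefSeq. The test was limma 3.58.1 (R 4.3.3), with 1 mean per group and a spread shared by the 9 arrays (6 residual and 3.02 prior degrees of freedom), and p-values were adjusted by Benjamini-Hochberg over all probe sets. The threshold of an adjusted p under 0.05 and 1.5-fold follows the study's methods. The script was tested on simulated data. With 3 arrays a group, the smallest two-sided p of an exact permutation test is 0.1. The number of arrays limits the precision, and p-values measure the spread between pools.

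Genes named with values were members that passed the test, the 2 with the largest difference from PBS per complex at each time, isoform pairs, core subunits, *AA467197* and, of the other lists, genes that passed. Other members named, such as *Ndufaf8*, and *Atpaf1*, *Nrf1*, *Gabpa* and the promoters shown were picked after their values were seen. Members and lists were chosen with earlier results of these data known. Alternatives covered the estimate of spread, fold threshold, background filter, scaling, choice of probe set, replicate number, samples in the fit and leaving out each array. Figures were drawn with matplotlib 3.10.9, and other steps used Python 3.11.15, pandas 2.3.3 and numpy 2.4.6.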

Additional observations from a re-analysis of the deposited data

Results flagged for a closer look

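*Cox6b2* differed between the times after LPS, with a log2 difference of 0.89 at 4 d compared to 1 d. *AA467197*, which is no member by symbol, differed in the other direction, at -2.44 at 4 d compared to 1 d. Both rest on a direct test of LPS 4 d against LPS 1 d in the same limma fit, and each was read by 1 probe set.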

How the results depend on the processing

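No member that passed in any setting changed direction. The count passing lower at 1 d compared to PBS, 0 as reported, became 1 (*Cox6b2*) with an intensity trend and robust spread, with the mean of all probe sets of a gene, among probe sets above background, and in a fit of the compared groups alone, and lay between 0 and 1 when single arrays were left out. The count passing higher at 4 d compared to 1 d, 1 as reported, became 0 at a 2-fold threshold, in a fit of the compared groups alone, in the ordinary test and with the replicate block, and lay between 0 and 1 when single arrays were left out. *AA467197* at 4 d compared to PBS lost its call in a fit of the compared groups alone, in the ordinary test (adjusted p = 0.138), with the replicate block (adjusted p = 0.0571) and when replicate 1 or 3 of LPS 4 d, 2 or 3 of LPS 1 d, or 1 or 2 of PBS was left out (adjusted p between 0.0593 and 0.133). The cause was not tested. Compared to PBS at 4 d, complex IV was at -0.051 among probe sets above background and between -0.060 and -0.021 without single arrays. Complex V was at -0.020 with the mean of all probe sets and between -0.035 and 0.011 without single arrays. The assembly and other proteins were at -0.041 with the lowest probe set above background and between -0.033 and 0.047 without single arrays. At 1 d compared to PBS, complex I lay between -0.077 and -0.028 without single arrays, and complex V was at -0.064 with array medians subtracted and between -0.059 and -0.030 without single arrays. Between 4 d and 1 d, complex III lay between -0.007 and 0.061 and the assembly and other proteins between 0.028 and 0.076 without single arrays. Scaling moved the median of all genes by at most 0.02.

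With the replicate block, 0 members passed lower and 0 higher in each comparison with PBS and between the times, and *Cox6b2* between 4 d and 1 d kept 0.89 with an adjusted p of 0.0677. The replicate numbers do not pair the arrays, since correlations of deviations lay between -0.03 and 0.02 for 9 pairs of the same number and between -0.03 and 0.04 for 18 pairs of other numbers. Of the 7 tissue isoforms of complex IV, the 95% interval reached past 1.5-fold in 1 at 4 d and in 3 at 1 d compared to PBS.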
